A study of Drosophila melanogaster with 6 samples.

Results

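A set of 10 genes for RNA-binding proteins of neurons was followed in dopamine neurons of Drosophila larvae: elav, fne, Rbp9, Sxl, Fmr1, orb2, pum, sqd, Rbfox1 and mbl. They were taken by gene symbol from the 17737 genes of the tables, and each symbol matched 1 gene. RNA-seq had been made from PPL1-γ1pedc neurons, dopamine neurons that signal aversive reinforcement to the mushroom body, picked by hand for their GFP at 120 h after egg laying, with 25 neurons in each library. In the 3 Stromalin KD libraries the ∆TH-D'-GAL4 driver expressed an RNAi against Stromalin, a subunit of the cohesin ring, and in the 3 control libraries the same driver was crossed without the RNAi. Both genotypes carried UAS-dicer2 and UAS-mCD8:GFP, so that dicer2 expression was shared and not compared. The larval driver marks few cells per brain, and neurons from many animals went into a library. The comparison asked whether the transcripts of these proteins differed between Stromalin KD and control neurons.

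RNA-binding proteins set the fate of a transcript after it is made: its splicing, the site where it is cleaved and polyadenylated, its transport into neurites, its translation and its decay. Neurons use many of them, because they splice long genes in neuron-specific ways and hold messages silent near synapses until they are translated. The ELAV family marks neurons of the fly, while Fmr1, orb2 and pum are known from translational control in long-term memory and at synapses.

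Libraries held 8638734 to 9624935 counts in Stromalin KD and 7790921 to 9625056 counts in control, with 10 or more counts in 2352 to 3732 genes in Stromalin KD and in 2298 to 4004 genes in control. SA, the gene of Stromalin, had 3, 0 and 0 counts in Stromalin KD against 0, 0 and 1372 counts in control, so that it checks the label of 1 control library at most. All 4 dopamine markers and all 8 pan-neuronal markers had 10 or more counts in every library. Of 6 glial markers the defining repo and alrm were at 0 everywhere, as were dpn, ase, wor and mira among 5 neuroblast markers, Hml among 8 fat body and blood markers, and all 4 germ-line markers. The remaining neuroblast marker, grh, had 0, 681 and 800 counts in Stromalin KD against 0, 244 and 0 counts in control, which is 0 to 97.0 normalized CPM (CPM after TMM scaling of library size) in Stromalin KD against 0 to 23.8 in control. The summed glial markers reached 0 to 187 normalized CPM in Stromalin KD against 0.426 to 374 in control, and the fat body and blood markers 0.347 to 728 in Stromalin KD against 0.142 to 1072 in control. The muscle markers reached 0.0979 to 388 in Stromalin KD against 0 to 579 in control, and the Kenyon cell markers 627 to 958 in Stromalin KD against 205 to 2823 in control. Their part in the results on RNA-binding proteins was not tested. In a library of pooled cells, fewer cells of a type and less RNA per cell cannot be told apart.

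The neurons expressed most of the set in both genotypes, elav, pum, sqd and fne most highly. Of the 10 genes, 8 had 10 or more counts in all 6 libraries, against 24.5% of the 4093 genes tested. Exceptions were Rbfox1, at 0 counts in control 3 only, and Rbp9, counted in 2 Stromalin KD libraries only. By TPM, which corrects for transcript length and depth and so allows genes to be compared, the mean level over the 6 libraries of both genotypes ran in the order elav at 315 ± 132 TPM, pum at 304 ± 146, sqd at 278 ± 161, fne at 263 ± 100.5, mbl at 208 ± 98.7, Rbfox1 at 199.5 ± 125, Sxl at 175 ± 189, Fmr1 at 83.3 ± 67.6, orb2 at 79.1 ± 72.1 and Rbp9 at 14.8 ± 32.2 (SD, n = 6). Neighbours in this order differed by less than the larger of their SDs. elav was above pum in 2 of 6 libraries, pum above sqd in 4, sqd above fne in 3, and fne above mbl in 4. Further down, mbl was above Rbfox1 in 2, Rbfox1 above Sxl in 3, Sxl above Fmr1 in 5 and Fmr1 above orb2 in 3 of 6 libraries, and orb2 was above Rbp9 in all 6. Some steps between genes further apart in the order also held in every library, such as elav and fne above both Fmr1 and orb2 in 6 of 6 libraries.

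**Figure D1:**
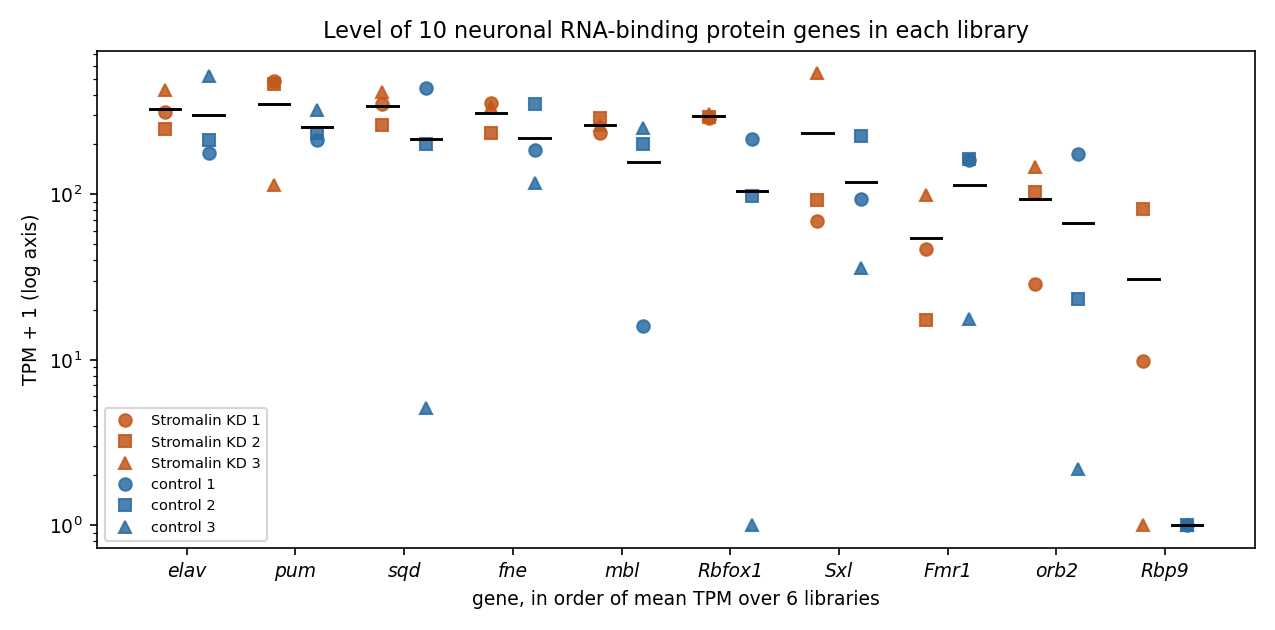
TPM + 1 of each of the 10 RNA-binding protein genes on a log axis, with 1 point per library, Stromalin KD left of control, and a bar at the group mean (n = 3 each). A TPM of 0 is drawn at 1. The points of both genotypes overlap for every gene but Rbfox1, and Rbp9 has a TPM above 0 in Stromalin KD 1 and 2 only.

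Ranked within each library among genes with any count, elav lay at a median TPM percentile of 83.8, sqd at 83.9, pum at 82.6, fne at 80.8, Rbfox1 at 79.2 over the 5 libraries that counted it, and mbl at 78.8. Sxl at 60.6, Fmr1 at 53.5 and orb2 at 50.6 lay near the middle. The rank moved with single libraries. In control 3, orb2 stood at a percentile of 14.6 and sqd at 24.0, and in control 1 mbl stood at 33.7, while elav stayed between 75.2 and 91.4 in all 6 libraries.

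**Figure D2:**
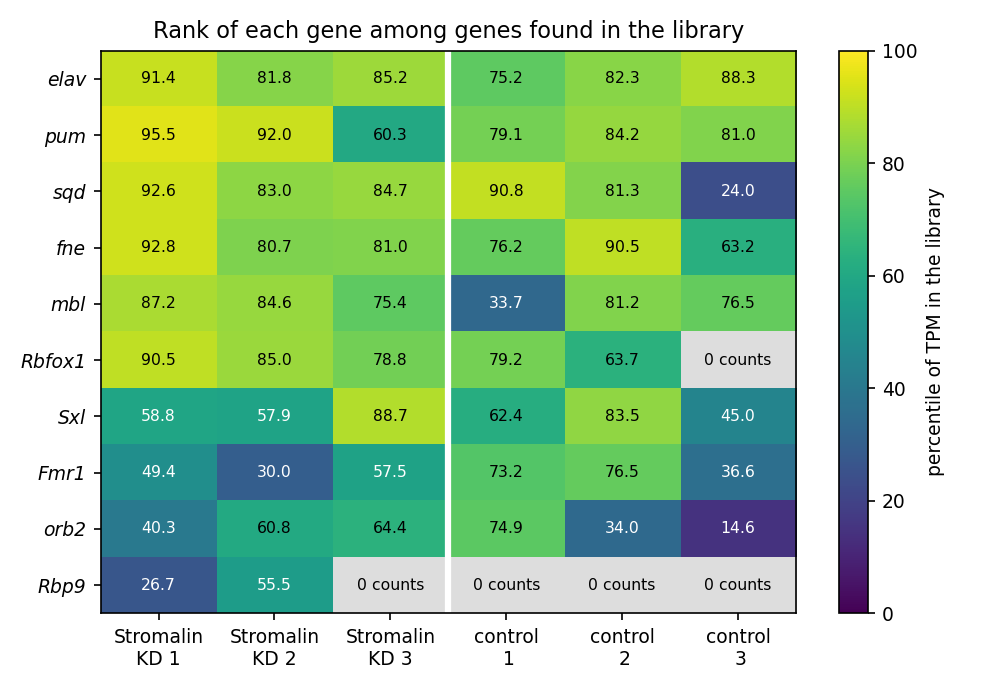
Percentile of the TPM of each gene among the genes with counts in the same library, with Stromalin KD libraries left of control libraries and grey cells marked at 0 counts. elav keeps a percentile of 75.2 or more in all 6 libraries, while orb2 and sqd drop to 14.6 and 24.0 in control 3.

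None of the 10 genes differed between Stromalin KD and control by edgeR's quasi-likelihood test with Benjamini-Hochberg adjustment. Over all genes tested, the share called was 0.0489%, which is 2 of 4093 genes, so that 0 of 10 is near the background. At an unadjusted edgeR p under 0.05 stood 1 gene, Rbp9, higher in Stromalin KD, against a background of 3.23% in either direction and 1.64% higher. DESeq2 called 1 of 10, again Rbp9 and higher, against a background of 5.46% in either direction and 3.14% higher. As Rbp9 had counts in Stromalin KD only and passed the count filter through that group alone, nothing is read from its call or its p. Apart from Rbp9, each gene had an edgeR adjusted p of 0.9996, and on normalized CPM the groups of 0 of 10 genes stood apart, against 6.62% of all genes tested in either direction and 3.84% higher in Stromalin KD. Exact permutation tests of 3 against 3 libraries cannot go below a p of 0.1.

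elav encodes the ELAV protein, a nuclear factor of postmitotic neurons that directs neuronal splicing and polyadenylation, and lies at X:509235-523226 on the minus strand (BDGP6). Its level was 313, 247 and 427 TPM in Stromalin KD 1 to 3 against 177, 212 and 516 TPM in control 1 to 3. The groups overlapped, with both the highest and the lowest values in control. Given as Stromalin KD over control here and for the other genes, its log2 fold change was 0.01 (SE 0.79, edgeR p = 0.992), with a 95% interval of -1.54 to 1.56, and exact permutation of normalized CPM gave p = 1. The sign is not fixed: it was -0.044 by DESeq2, and without Stromalin KD 3, control 1 or control 2 edgeR gave -0.21, -0.20 and -0.21, against 0.66 without control 3.

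fne (found in neurons), at X:12917477-12950417 on the plus strand, encodes the ELAV relative that is mostly cytoplasmic and can take on nuclear ELAV functions when elav is lost. It had 358, 234 and 337 TPM in Stromalin KD against 185, 349 and 116 TPM in control. By TPM, control 2 lay among the Stromalin KD values and the other controls below them. By normalized CPM, control 1 at 774 also lay above Stromalin KD 2 at 683. The mean was 1026 ± 316 normalized CPM in Stromalin KD and 739 ± 305 in control (SD, n = 3 each), with a log2 fold change of 0.47 (SE 0.94, edgeR p = 0.613, exact permutation p = 0.4) and an interval of -1.37 to 2.32.

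Rbp9, at 2L:2954762-2968434 on the plus strand, encodes the remaining member of the ELAV family, known from neurons of the adult and from the female germ line. It had 237, 2024 and 0 counts in Stromalin KD 1 to 3 and 0 counts in each control library. Stromalin KD 2 alone held 87.9% of its summed normalized CPM, and Stromalin KD 3 was at 0 like the controls. It reached 8.89 TPM in Stromalin KD 1 and 80.2 TPM in Stromalin KD 2, percentiles of 26.7 and 55.5 of those libraries. With 3 counts in all control libraries together taken as their floor, the Stromalin KD mean of 75.2 ± 107 normalized CPM (SD, n = 3) was at least 622-fold higher, a bound that covers counting error only and treats the mean as exact. Without Stromalin KD 2 the bound was 113-fold. edgeR gave an unadjusted p of 0.0469 and an adjusted p of 0.809, DESeq2 an adjusted p of 0.033, and exact permutation p = 0.4. Without Stromalin KD 2 the DESeq2 adjusted p was 0.116, against 8.16e-08 to 0.0242 without any other single library. The 8.16e-08 came without Stromalin KD 1, when Stromalin KD 2 alone held counts, and nothing is read from it. In edgeR, Rbp9 did not pass the count filter without Stromalin KD 1 or without Stromalin KD 2. The germ-line markers vas, nos, bam and osk were at 0 in all 6 libraries.

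Summed over elav, fne and Rbp9, the ELAV family reached 680, 561 and 764 TPM in Stromalin KD against 363, 561 and 631 TPM in control. The groups overlapped, with control 3 well above Stromalin KD 2 and control 2 level with it. Means were 668 ± 102 TPM in Stromalin KD and 518 ± 139 TPM in control (SD, n = 3 each). elav held 46.1%, 44.0% and 55.9% of that sum in Stromalin KD against 48.9%, 37.8% and 81.7% in control. In control 3 the ratio of elav to fne TPM was 4.46, whereas it lay between 0.876 and 1.27 in Stromalin KD and at 0.958 and 0.608 in the other controls. The 3 proteins are close paralogs, so that reads could be split between them in ways that the counting does not show. The exons of elav also overlap those of a non-coding RNA on the same strand, lncRNA:enrr, over 2994 bases.

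**Figure D3:**
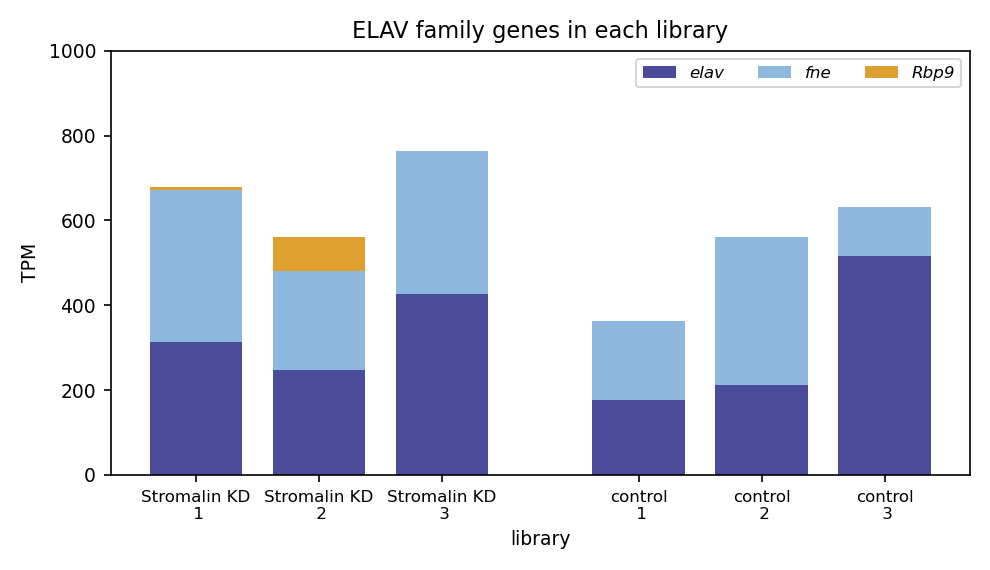
TPM of elav, fne and Rbp9 stacked for each library, with the Stromalin KD libraries left of the control libraries. Control 3 is made up mostly of elav, at 81.7%, and Rbp9 is seen in Stromalin KD 1 and 2 only.

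Sxl (Sex-lethal), at X:7074550-7098053 on the minus strand, encodes the splicing and translation regulator that is the switch of sex determination and dosage compensation, and resembles the ELAV proteins in its RNA-binding domains. It had 68.1, 91.3 and 537 TPM in Stromalin KD against 92.1, 224 and 34.9 TPM in control. Stromalin KD 3 stood above all others and held 50.8% of the summed normalized CPM, while the remaining libraries overlapped. The log2 fold change was 0.95 (SE 1.19, edgeR p = 0.424, exact permutation p = 0.7), with an interval of -1.38 to 3.28, and it was -0.60 without Stromalin KD 3. Sxl is transcribed in both sexes and its protein differs by splicing, which counts per gene do not resolve. The sex of the larvae is not given in the labels.

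Fmr1, at 3R:10101420-10110121 on the minus strand, encodes the fly FMRP, a repressor of translation at synapses whose human counterpart is lost in fragile X syndrome. Its level was 45.6, 16.3 and 98.2 TPM in Stromalin KD against 161, 162 and 16.7 TPM in control. Control 1 and 2 lay above every Stromalin KD library and control 3 near the lowest. It was the 1 gene of the set with a negative log2 fold change, at -1.18 (SE 2.53, edgeR p = 0.639, exact permutation p = 0.3), and its interval of -6.14 to 3.77 was the widest among the 9 genes other than Rbp9. The sign held without any single library, at -1.91 to -0.60.

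orb2, at 3L:8937100-8954463 on the minus strand, encodes a CPEB protein that binds the ends of messages and is required for long-term memory. It had 27.9, 103 and 146 TPM in Stromalin KD against 174, 22.4 and 1.18 TPM in control. Both the highest and the lowest values were controls, and counts ran from 30 in control 3 to 4796 in control 1. The log2 fold change of 0.13 (SE 1.80, edgeR p = 0.941, exact permutation p = 0.9) had an interval of -3.39 to 3.66, and it was 3.06 without control 1 against -0.46 without control 3, -0.39 without control 2 and -0.41 without Stromalin KD 3. Its exons share 1319 bases with CG43783 on the same strand, a gene with 1428 counts in Stromalin KD 3 and 1568 in control 2 but 0 in the other libraries.

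pum (pumilio), at 3R:9066343-9237682 on the minus strand, encodes a PUF-domain repressor of translation that tunes neuronal excitability and dendrite growth. It had 482, 460 and 113 TPM in Stromalin KD against 213, 233 and 321 TPM in control. The control libraries were close together, and Stromalin KD 1 and 2 lay above them while Stromalin KD 3 lay below. The mean was 1432 ± 886 normalized CPM in Stromalin KD and 1130 ± 297 in control (SD, n = 3 each), with a log2 fold change of 0.34 (SE 0.77, edgeR p = 0.658, exact permutation p = 0.6), an interval of -1.17 to 1.86, and -0.051 without Stromalin KD 1.

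sqd (squid), at 3R:13634862-13646304 on the minus strand, encodes an hnRNP protein known for the transport and anchoring of gurken mRNA in the oocyte. It had 353, 261 and 414 TPM in Stromalin KD against 435, 201 and 4.15 TPM in control. Control 1 was the highest library and control 3, with 92 counts against 4911 or more elsewhere, the lowest by far. The log2 fold change was 0.48 (SE 1.00, edgeR p = 0.627, exact permutation p = 0.6), with an interval of -1.47 to 2.43. It was 1.90 without control 1 and -0.10 without control 3.

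Rbfox1, at 3L:10481412-10594012 on the plus strand, encodes a splicing factor whose vertebrate relatives regulate neuronal exons. Its TPM was the most even of the set in Stromalin KD, at 289, 292 and 305 TPM, against 214, 97.2 and 0 TPM in control. By TPM every Stromalin KD library lay above every control library, against 6.33% of all genes tested whose groups did not overlap on that scale. By normalized CPM the groups overlapped, with 918, 745 and 862 in Stromalin KD against 780, 249 and 0 in control. The log2 fold change was 1.30 (SE 1.16, edgeR p = 0.263, exact permutation p = 0.2), with an interval of -0.97 to 3.57, and 0.70 without control 3 against 2.76 without control 1. The 0 in control 3 allows up to 0.362 CPM in that library, from 3 counts.

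mbl (muscleblind), at 2R:17216549-17379376 on the plus strand, encodes a splicing factor whose human relatives are sequestered in myotonic dystrophy. It had 234, 287 and 260 TPM in Stromalin KD against 15.03, 199 and 251 TPM in control. Stromalin KD libraries were again close together, and control 1 stood far below the rest with 701 counts. The mean was 1339 ± 11.0 normalized CPM in Stromalin KD and 822 ± 676 in control (SD, n = 3 each), and the log2 fold change of 0.70 (SE 0.84, edgeR p = 0.405, exact permutation p = 0.4) had an interval of -0.95 to 2.36. It was 0.18 without control 1 and 1.38 without control 3.

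**Figure D4:**
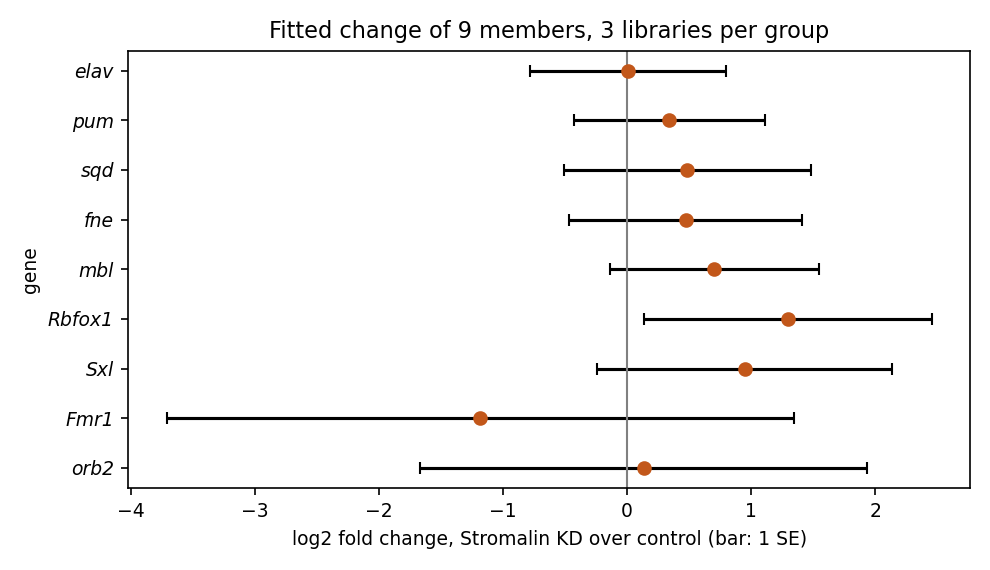
log2 fold change of 9 genes, Stromalin KD over control, from edgeR with bars of 1 SE (n = 3 libraries per group). Rbp9, whose control libraries were all at 0, is left out. Values run from Fmr1 at -1.18 to Rbfox1 at 1.30, with elav at 0.01. The bar of Rbfox1 (SE 1.16) does not reach 0, whereas the 95% interval of each of these 9 genes, which is not drawn, includes 0.

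Taken as a list, 9 of 10 genes had a positive log2 fold change, against 51.2% of all genes tested. The median was 0.48 against 0.07 over all genes tested. The 9 include elav at 0.01 and Rbp9, whose sign was fixed because it had counts in Stromalin KD only. With Rbp9 set at its fold bound the median was the same, 0.48, which was fixed in advance because Rbp9 stayed the highest value. The count of positive values was 8 by DESeq2, by RLE factors, with rRNA genes removed and without a count filter, each time by elav, and 6 to 8 of 9 or 10 in the edgeR fits without 1 library. Since 5 of the genes turned sign without 1 library, these signs describe the 6 libraries only. The libraries varied widely, with a common coefficient of biological variation of 228% in edgeR. Within the set, the highest library was 2.99 times the lowest for elav, 3.12 for fne and 4.81 for pum in normalized CPM. It was 13.8 times for Sxl, 14.1 for Fmr1, 14.5 for mbl, 121 for sqd and 171 for orb2, against a median of 15.5 over the 1001 genes with 10 or more counts in all 6 libraries. The SE of the log2 fold change had a median of 0.97 over the 8 genes and 1.59 over those 1001 genes.

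Control 3 was the lowest control library in TPM for fne, Sxl, Fmr1, orb2, sqd and Rbfox1, and the highest for elav, pum and mbl. It also had the fewest genes with 10 or more counts, 2298, against 2535 and 4004 in the other controls and 2352 to 3732 in Stromalin KD. The part of detection in those levels was not tested. The 3 genes most like elav in pattern over the 6 libraries were RpL5 (Pearson r = 0.97 of log2 normalized CPM), MBD-R2 (r = 0.97) and step (r = 0.96), out of 1001 genes. The 6 points share library and depth between genes, and the values are a description with no test.

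RNA-binding proteins outside the set were followed through a list of 69 gene names, of which 66 matched and 59 were tested. In edgeR 0 of 59 passed and 3 had an unadjusted p under 0.05, 2 higher and 1 lower in Stromalin KD. The shares over all genes tested were 0.0489% after adjustment and 3.23% before it, in either direction. DESeq2 called 1 higher and 2 lower of the 56 to which it gave an adjusted p, against a background of 5.46%, and each of these 3 genes, Syp, tra2 and vir, was at 0 in the whole of 1 group. Signs were 33 positive and 26 negative, with a median log2 fold change of 0.19. Among translation, transport and decay factors 16 of 23 were positive (median 0.39), among hnRNP and related proteins 8 of 15 (median 0.16), and among splicing factors 9 of 21 (median -0.37). The groups of 5 of 59 genes did not overlap, or 8.47%, against 6.62% of all genes tested. These were orb, Imp and ssx, higher in Stromalin KD, and Atx2 and glo, lower in Stromalin KD.

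The 5 most highly expressed of these by TPM each had a log2 fold change smaller than its SE. pAbp, the cytoplasmic poly(A)-binding protein, had a log2 fold change of 0.15 (SE 0.60), shep, a regulator of neuronal remodeling, 0.45 (SE 0.51), and the hnRNP gene Hrb27C -0.17 (SE 0.68). The CELF-type gene bru3 had -0.44 (SE 0.60) and the hnRNP gene Hrb98DE 0.45 (SE 1.36). None had an unadjusted edgeR p under 0.05.

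orb, the other CPEB gene of the fly and best known from the oocyte, had 4285, 5757 and 11080 counts in Stromalin KD against 0, 751 and 1169 counts in control. All Stromalin KD libraries lay above all control libraries. The mean was 801 ± 471 normalized CPM in Stromalin KD and 76.1 ± 77.5 in control (SD, n = 3 each), with a log2 fold change of 3.39 (SE 1.47) and an edgeR p of 0.0210 before and 0.809 after adjustment over all genes. orb2 had 0.13 (SE 1.80) in the same fit, and the difference between the CPEB genes was not tested.

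Syp (Syncrip), an RNA-binding protein of neural progenitors and synapses, had 1489, 0 and 1616 counts in Stromalin KD and 0 counts in each control. Stromalin KD 2 was at 0 like the controls, and the Stromalin KD mean was at least 1015-fold higher than the same floor of 3 counts over the controls. Its DESeq2 adjusted p was 0.0257, its edgeR p 0.0217 before and 0.809 after adjustment, and its exact permutation p 0.4. It passed the count filter through Stromalin KD alone, and nothing is read from these values. eIF4E1, the cap-binding protein that Pum and FMRP complexes act on, had 375, 842 and 376 counts in Stromalin KD against 4333, 674 and 10152 counts in control. Control 2 lay among the Stromalin KD libraries, and the log2 fold change was -3.56 (SE 1.63, edgeR p = 0.0289, adjusted p = 0.809, exact permutation p = 0.2).

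**Figure D5:**
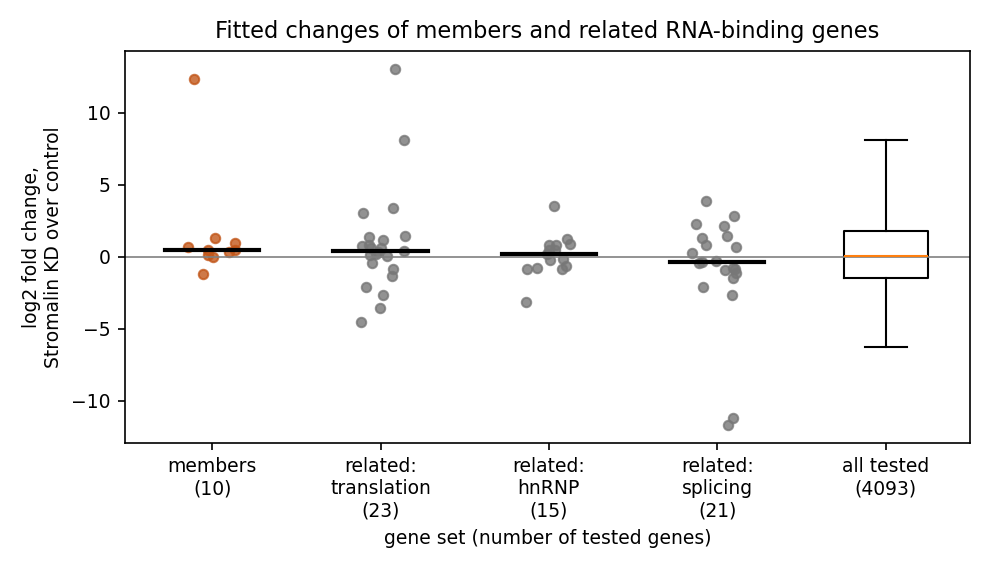
log2 fold change, Stromalin KD over control, of the 10 genes and of the related RNA-binding proteins by role. A box beside them shows all 4093 genes tested, with whiskers at percentiles 5 and 95. Thick bars are medians, 0.48 for the set, 0.39 for translation factors, 0.16 for hnRNP proteins and -0.37 for splicing factors.

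RNAs that these proteins are known to bind or regulate, and genes of the Sxl pathway, made a list of 28 genes with 22 tested, 6 of which are also among the 59 related genes. In edgeR 0 of 22 passed, against 0.0489% of all genes tested. At an unadjusted edgeR p under 0.05 stood 1, eIF4E1, which was lower, against a background of 3.23% in either direction and 1.59% lower. DESeq2 called 2 lower of 18, tra2 and vir, against a background of 5.46% in either direction and 2.32% lower. Both are already counted among the related genes and were at 0 in all of Stromalin KD, so that nothing is read from this count. Signs were 11 positive and 11 negative with a median of -0.01. Among the targets, futsch, the microtubule-associated protein repressed by FMRP at synapses, had 66906, 88638 and 95773 counts in Stromalin KD against 49092, 101954 and 72724 counts in control. para, the sodium channel gene repressed by Pum, had 18187, 29143 and 36748 counts in Stromalin KD against 13828, 32069 and 14723 in control. The groups of both genes overlapped, with the highest count of futsch in control 2 and that of para in Stromalin KD 3. Rac1, a small GTPase of the actin cytoskeleton whose mRNA FMRP binds, had 8, 185 and 1559 counts in Stromalin KD against 2615, 299 and 7739 counts in control, with a log2 fold change of -2.78 (SE 1.88, edgeR p = 0.139, exact permutation p = 0.2).

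In the Sxl pathway, tra, whose splicing Sxl directs in females, had 143 counts in control 1 and 0 in all other libraries. msl-2, whose translation Sxl represses in females, had 1033, 2561 and 0 counts in Stromalin KD against 4761, 323 and 2677 counts in control. The groups of 3 of 22 genes stood apart, or 13.6%, against 6.62% of all genes tested in either direction and 3.84% higher. These 3, mle, roX1 and ssx, were all higher in Stromalin KD, and ssx is also 1 of the 5 related genes. mle, the helicase of the dosage compensation complex, had 2041, 3022 and 6652 counts in Stromalin KD against 1, 192 and 424 counts in control, with a log2 fold change of 4.15 (SE 2.18, edgeR p = 0.0562, exact permutation p = 0.1). roX1, the non-coding RNA of that complex, had 18667, 19390 and 21688 counts in Stromalin KD against 3371, 16344 and 8414 in control. Its log2 fold change was 1.07 (SE 0.69, edgeR p = 0.124, exact permutation p = 0.1), and roX2, the other RNA of the complex, was at 0 in every library. ssx, the Sxl paralog, had 137, 184 and 424 normalized CPM in Stromalin KD against 0.284, 28.7 and 21.2 in control (edgeR p = 0.193, exact permutation p = 0.1). roX1 is known from male somatic cells, and the mix of sexes in each pool is not known here.

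tra2, the partner of Tra in sex-specific splicing, had 0 counts in each Stromalin KD library against 315, 577 and 0 counts in control. vir (virilizer), which acts in Sxl splicing and RNA methylation, had 0 counts in each Stromalin KD library against 0, 135 and 971 counts in control. Each was thus counted in 2 of 3 controls and passed the count filter through control alone. Against a floor of 3 counts over the Stromalin KD group, tra2 was at least 305-fold lower in Stromalin KD, or 202-fold without control 2. The bound for vir was 428-fold lower, or 59.6-fold without control 3. DESeq2 gave adjusted p-values of 0.0453 for tra2 and 0.0362 for vir, while edgeR gave unadjusted p-values of 0.0676 and 0.0601 and an adjusted p of 0.809 for each, and exact permutation gave p = 0.4 for each. Nothing is read from these values.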

How the data were processed

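PPL1-γ1pedc neurons of 3 Stromalin KD and 3 control samples were compared by RNA-seq, grouped by labeled genotype. Per the paper's methods samples came from separate days with genotypes alternating, and libraries were made with the NuGEN Ovation SoLo kit with depletion probes. The replicate labels name biological replicates.

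Whole-number raw counts of each gene were deposited, made according to the authors' processing notes with HTSeq 0.9.1 on BDGP6, and DESeq2 is named there too. A deposited signal table holds the counts after size-factor scaling, and a deposited TPM table is on a linear scale. The authors' own fold changes and p-values, in a further table, were not used. Not given in the sources used here: aligner, strand setting and molecular identifiers. Therefore, overlapping or antisense genes may share reads.

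Raw counts were tested with edgeR 4.0.16 (R 4.3.3): a minimum of 10 counts in 2 or more libraries (4093 genes), TMM factors, quasi-likelihood test, two-sided, Benjamini-Hochberg adjustment over all kept genes, threshold 0.05. Rbp9 and Syp passed this filter through Stromalin KD alone, tra2 and vir through control alone. Counts were divided by TMM-scaled library size to give normalized CPM. SEs follow from the fold change and the F statistic, and 95% intervals are their normal approximation. Correlations used a prior count of 2. Fold bounds use a floor of 3 counts over a group. A count of 0 allows 0.312 to 0.385 CPM per library, counting error only. rRNA genes held 18.8% to 21.5% of counts in Stromalin KD and 16.6% to 30.3% in control. No row without a gene name entered the tests.

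DESeq2 1.42.0, limma 3.58.1 on log2(TPM + 1) or log2(TPM + 0.1), other factors and filters, the replicate block, other scales and leaving out each library were the alternatives. DESeq2 without each library, fold bounds without a library and the shares of all genes with groups that do not overlap under other settings were added after seeing the data. Python 3.11.15 computed exact permutations and summaries. The edgeR steps were run on simulated counts, with a pass criterion only at a spread far below that of these data. A run at the common spread of these data had no criterion, and its outcome is not given here. The steps were thus not shown to recover changes at the spread seen here. Loci and exon overlaps come from the Ensembl annotation of BDGP6, while the release behind the counting is not stated.

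The 10 genes and all lists were chosen with earlier results of these data known. Named genes are the 10, of the lists the 8 with the smallest edgeR p, those called by either tool and the 5 highest in TPM, and the 3 most like elav. futsch, para, tra, msl-2, roX2, ssx, Imp, Atx2 and glo were named after their values were seen.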

Additional observations from a re-analysis of the deposited data

How the results depend on the processing

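Of the 10 RNA-binding protein genes 0 were called in edgeR, and DESeq2 called 1, with or without Cook's and independent filtering. Without 1 library the count was 0 to 1. DESeq2 called 3 related genes and 2 target or Sxl pathway genes, which are 3 distinct genes, and 5 and 3 without those filters, against 0 in edgeR. Over all genes edgeR called 2 of 4093, DESeq2 160 of 2930, and 1460 of 6922 without those filters. RLE factors gave 3, TMMwsp factors, total counts, rRNA removal and filters of 10 counts in 3 or 6 libraries 0, no filter 1, the replicate block 1, limma on log2(TPM + 1) and log2(TPM + 0.1) 4 each, limma without a filter 0, and leaving out 1 library 0 to 3. On TPM 1 gene of the set had groups that did not overlap, against 0 on normalized CPM and 0 to 3 without 1 library. Over all genes tested the share was 6.33% on TPM, 6.62% on normalized CPM and 13.5% to 15.95% without 1 library. At 50 counts 7 of the set were detected in all libraries, at 10 counts 8.

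The log2 fold change of elav was -0.044 by DESeq2 with either filtering, -0.048 with RLE factors, -0.0087 with rRNA genes removed and -0.022 without a filter, and its mean difference was -274 in the authors' normalized counts against 6.68 normalized CPM. Without 1 library, edgeR and DESeq2 fold changes ran from -0.21 to 0.66 and -0.38 to 0.65 for elav, -0.60 to 1.54 and -0.65 to 1.53 for Sxl, -0.46 to 3.06 and -0.56 to 3.25 for orb2, -0.051 to 0.76 and -0.19 to 0.62 for pum, and -0.10 to 1.90 and -0.17 to 2.08 for sqd. DESeq2 also gave negative values of -0.060 and -0.37 for elav without Stromalin KD 1 and control 2, and of -0.54 and -0.41 for orb2 without Stromalin KD 3 and control 2. Mean differences of these 5 genes in normalized CPM ran from -248 to 450.4, -127 to 593, -98.5 to 240.0, -70.3 to 792 and -60.5 to 673. The cause was not tested. The median of all genes shifted by 0.13 and 0.17 under limma on log2(TPM + 1) and log2(TPM + 0.1).

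Replicate numbers did not pair the libraries: same-numbered deviations correlated at -0.0202, -0.00977 and 0.0246, and 1 of 3 numbers correlated best with itself. With the replicate block 0 of the 10 genes were called, and the edgeR log2 fold change was 2.14 for orb2, 1.44 for sqd, 2.57 for Rbfox1, 1.27 for mbl and 0.33 for Sxl, against 0.13, 0.48, 1.30, 0.70 and 0.95 without it. Rbp9, with control at 0, had an unadjusted edgeR p of 0.196 with the block against 0.0469 without it. Under limma on log2(TPM + 1) and log2(TPM + 0.1) the values were 1.87 and 2.13 for orb2, 2.14 and 2.23 for sqd, 3.42 and 4.53 for Rbfox1, and 1.48 and 1.51 for mbl, none of them called. With 3 libraries per genotype and a common coefficient of variation of 228%, intervals of most genes span several-fold changes in both directions.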
